A study of Mus musculus with 10 samples.

Results

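The MHC class I chains described here are 9 mouse genes chosen by name, not by their values: the classical heavy chains H2-K1 and H2-D1, the Qa-region heavy chains H2-Q4, H2-Q6 and H2-Q7, the T-region heavy chains H2-T22 and H2-T23, the M-region heavy chain H2-M3, and the light chain B2m. They are 9 of 27151 genes in the table, and all 9 passed a filter on low values that kept 17088 genes for testing. The libraries were made from tongue of C57BL/6J mice that had all been exposed to the carcinogen 4NQO. Of these, 4 libraries were labelled vehicle and 6 SP2509, an inhibitor of the histone demethylase LSD1. The titles of the SP2509 libraries carry an h after the name that the labels do not explain. The sources used here give no age, dose, route or duration, and do not say whether lesions were sampled. Nothing in the labels ties each library to a separate animal, so the p-values reflect library-to-library spread that could be partly technical.

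A class I molecule is a heavy chain that folds with beta-2-microglobulin, the B2m product, around a short peptide in the endoplasmic reticulum and carries it to the cell surface. The classical chains show peptides of the cell's own proteins to CD8 T cells on nearly all nucleated cells. The non-classical chains vary less between strains and often have specialised ligands or receptors. The genes share promoter elements that are known to respond to interferon, NF-kappaB and the class I transactivator NLRC5. The series title ties LSD1 inhibition to MHC class I, which is the question that a comparison of these genes addresses.

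Promoter stretches are shown first, because they show which interferon-type and kappaB letters recur among the class I genes and in which of them. All 9 genes were found in a RefSeq promoter table (GRCm38.p6), and the 250 bases before each start were searched on both strands. Each line below gives 30 bases, 5′ to 3′ on the gene's strand, ending at the interferon-type match. Capitals mark matches to the interferon-stimulated response element (ISRE: GAAA, any 2 bases, GAAA), a shorter form with 1 A less (GAANNGAAA), or the kappaB element (GGGA, any base, T, any base, CCC), on either strand.
H2-K1: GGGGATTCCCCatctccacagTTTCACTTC
H2-D1: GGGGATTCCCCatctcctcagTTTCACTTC
H2-Q4: gGGGATTTCCCatctccccagTTTCACTTC
H2-Q6: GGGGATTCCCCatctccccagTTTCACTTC
H2-Q7: tGGGGATTCCCatctccccagTTTCACTTC
H2-M3: attcccccatttcctctgaggTTTCACTTC
H2-T22: agagtccctaattggcttagTTTCACTTTC
H2-T23: atgaaaagggatcctactgcTTTCTCTTTC
B2m: acgggactttataagaacatGAAACTGAAA
These stretches lie at chr17:34000429-34000458 (minus strand) for H2-K1, chr17:35262923-35262952 for H2-D1, chr17:35379443-35379472 for H2-Q4, chr17:35424677-35424706 for H2-Q6, chr17:35439021-35439050 for H2-Q7 and chr17:37270112-37270141 for H2-M3, all on the plus strand. For H2-T22 the stretch lies at chr17:36042924-36042953 and for H2-T23 at chr17:36032816-36032845, both on the minus strand, and for B2m at chr2:122147528-122147557 on the plus strand. The RefSeq starts of H2-D1 and H2-T23 lie inside the genes as GENCODE annotates them, so these stretches fall within the annotated gene.

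The classical and Qa-region genes shared a compact block. In H2-K1, H2-D1, H2-Q4, H2-Q6 and H2-Q7 a kappaB match was followed after 10 bases by the short ISRE. Compared with the 30 bases of H2-K1 without gaps, H2-D1 and H2-Q6 were identical at 29 positions, H2-Q4 at 28 and H2-Q7 at 25. Among 32851 RefSeq promoter windows of the same length, 0.944% held the kappaB letters, 6.31% the short ISRE and 0.0609% both. H2-T22, H2-T23 and B2m held the longer ISRE, found in 2.98% of all windows, and no match to these kappaB letters. The kappaB pattern used is narrow, and near matches were not counted. Examples are ggaaagtccc just after the ISRE in B2m and ggagattccc in H2-M3. The split between genes with and without a kappaB match therefore depends on the pattern. H2-M3 held the short ISRE and an interferon-gamma activated site (GAS, TTCNNNGAA), whose letters occur in 7.02% of windows. The cyclic AMP response core (TGACG, 17.8% of windows) was present in 7 of 9 genes, all but H2-Q6 and H2-T23. The CCAAT box, counted as ATTGG on either strand (33.8% of windows), was present in 9 of 9. It was in the inverted form, ATTGG on the gene's strand, in all but H2-T23. A match is a description of letters and not evidence of binding.

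The whole 250-base windows of 3 genes show how these blocks sit before the start in a classical gene, a T-region gene and the light chain. They are H2-K1 (chr17:34000348-34000597, minus strand), H2-T22 (chr17:36042743-36042992, minus strand) and B2m (chr2:122147437-122147686, plus strand), with the same capitals.
H2-K1: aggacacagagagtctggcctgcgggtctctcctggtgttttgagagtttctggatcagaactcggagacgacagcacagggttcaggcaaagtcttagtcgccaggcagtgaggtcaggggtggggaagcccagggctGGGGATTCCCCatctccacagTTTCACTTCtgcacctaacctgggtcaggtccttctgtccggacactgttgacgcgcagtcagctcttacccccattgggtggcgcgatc
H2-T22: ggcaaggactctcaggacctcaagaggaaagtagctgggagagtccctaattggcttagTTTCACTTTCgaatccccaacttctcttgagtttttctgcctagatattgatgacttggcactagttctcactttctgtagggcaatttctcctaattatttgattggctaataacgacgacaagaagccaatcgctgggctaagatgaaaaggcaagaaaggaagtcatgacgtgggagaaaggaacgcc
B2m: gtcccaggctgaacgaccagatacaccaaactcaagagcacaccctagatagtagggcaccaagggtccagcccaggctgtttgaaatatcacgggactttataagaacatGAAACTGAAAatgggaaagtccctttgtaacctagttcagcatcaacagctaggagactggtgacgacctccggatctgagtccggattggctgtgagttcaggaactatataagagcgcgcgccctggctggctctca
Counted from the RefSeq start, the first kappaB base lies at position -111 in H2-K1, -171 in H2-D1, -173 in H2-Q4 and H2-Q6 and -133 in H2-Q7. The ATTGG match on the gene's strand shifts with it, at -16 in H2-K1, -76 in H2-D1, -79 in H2-Q4 and H2-Q6 and -40 in H2-Q7. The spacing between these matches was thus similar, and the offsets follow where each start is placed.

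The libraries differed in ways that touch every value below. Whole reads per library ranged from 9180844 to 14768955 in vehicle and from 15748571 to 19375555 in SP2509, and mitochondrial genes took at least 35.3% of them in vehicle and at most 32.2% in SP2509. SP2509 replicates 1 and 2, and 4 and 5, resembled each other more closely than other libraries of a group, with a standard deviation of log2 ratios of 0.131 and 0.136 over 4430 well-covered genes against 0.235 to 0.967 in the other 19 pairs. Each of those pairs was therefore averaged to 1 unit for means and SDs (n = 4 vehicle libraries and n = 4 SP2509 units), and called genes are given with their adjusted p when the pairs are averaged. Replicate 6 had the lowest keratinocyte markers of all libraries and the highest skeletal muscle markers (mean log2 values of 11.5 and 15.2), so values without it are given where a call depends on it. In bulk tissue, fewer cells of a type and less RNA per cell cannot be told apart. Kdm1a, the gene of LSD1, differed by 0.01 on the log2 scale (SE 0.12, limma adjusted p = 0.958). An enzyme inhibitor need not change the RNA of its target, so this does not check the labels.

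All 9 genes had a positive log2 fold change in SP2509 relative to vehicle, and H2-T22 and H2-T23 were the 2 that passed the test (limma, Benjamini-Hochberg adjusted p under 0.05). Over all tested genes 4.95% were called higher and 4.15% lower, and none of the 9 was lower. The median log2 fold change of the 9 genes was 0.61, against 0.02 over all tested genes, of which 51.9% were positive. In 0 of 9 genes did every SP2509 library lie above every vehicle library, an arrangement found in 6.54% of tested genes. With the close pairs averaged, no gene of the table passed (limma, lowest adjusted p = 0.0715), while 1963 genes (11.5%) were higher and 1690 lower at an unadjusted p under 0.05. Without SP2509 replicate 6, 6 of the 9 genes were called higher, where 11.5% of tested genes were. These were H2-K1, H2-D1, H2-Q7, H2-T22, H2-T23 and B2m. Except for H2-T22, each was called in only 1 of 10 limma fits that left out 1 library, this one. In the other 9 fits the adjusted p reached 0.352 for H2-K1, 0.209 for H2-D1, 0.302 for H2-Q7 and 0.228 for B2m.

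**Figure D1:**
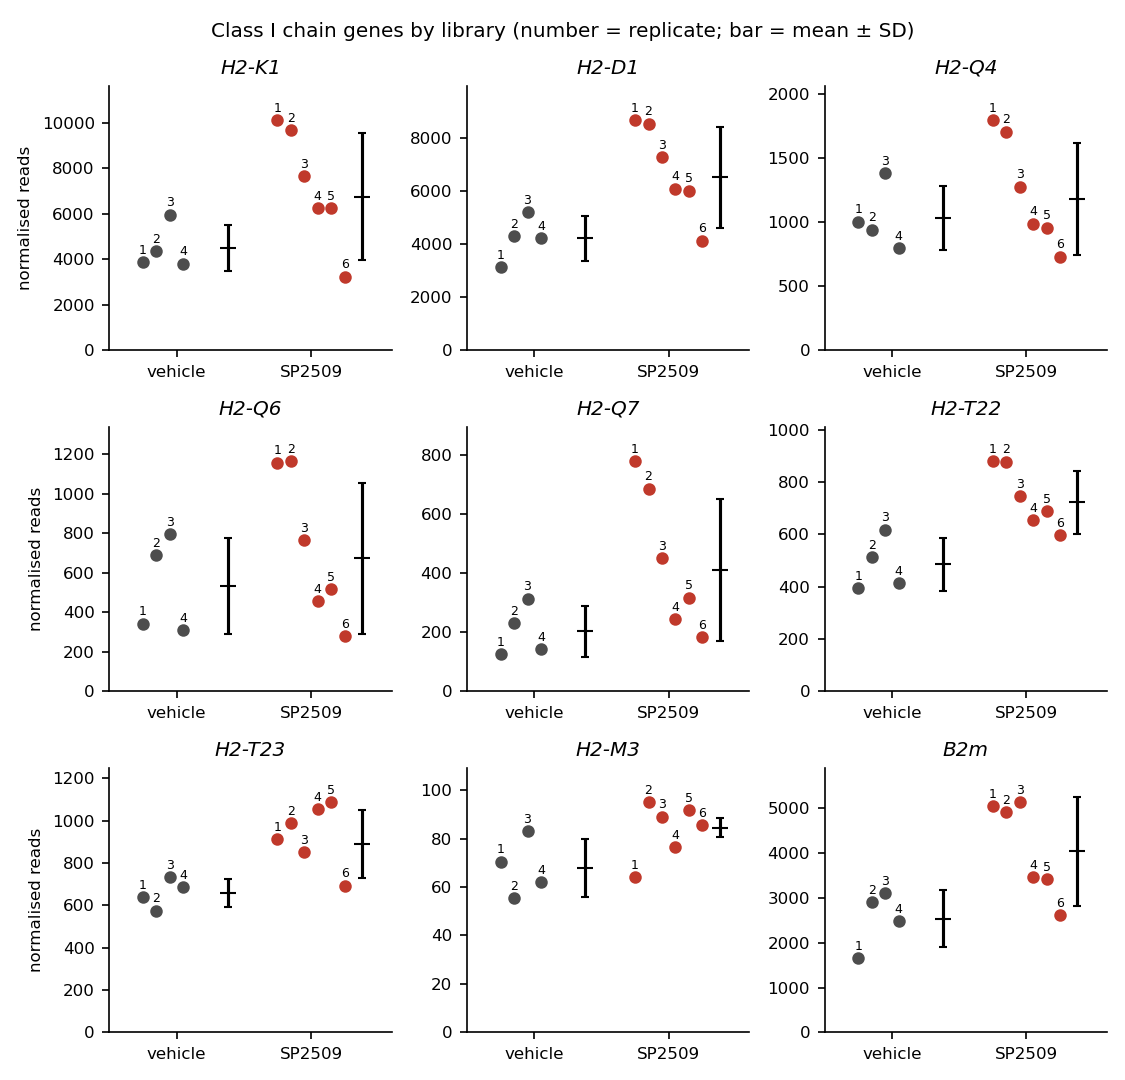
Normalised reads of the 9 genes in each of the 10 libraries, on linear axes from 0, with points numbered by replicate and bars for the mean ± SD (4 vehicle libraries, 4 SP2509 units). SP2509 replicates 1 to 3 are the highest libraries of the classical chains and B2m, and replicate 6 lies within or below the vehicle range in 8 of the 9 genes, all but H2-M3.

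H2-K1 (ENSMUSG00000061232, chromosome 17, 33996017 to 34000347, minus strand, GRCm38) encodes the classical K heavy chain. It had 3886, 4373, 5973 and 3810 normalised reads in vehicle replicates 1 to 4 and 10111, 9697, 7668, 6259, 6255 and 3241 in SP2509 replicates 1 to 6. Of the SP2509 libraries 5 lay above every vehicle library and replicate 6 lay below all of them. The log2 fold change was 0.61 (SE 0.29, limma adjusted p = 0.187, and 0.389 with the pairs averaged). Without replicate 6 it was 0.82 (adjusted p = 0.00979).

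H2-D1 (ENSMUSG00000073411, chromosome 17, 35262730 to 35267499, plus strand) encodes the classical D heavy chain. Vehicle libraries held 3139, 4312, 5217 and 4237 normalised reads and SP2509 libraries 8677, 8561, 7297, 6105, 6032 and 4148. Replicate 6 was the only SP2509 library inside the vehicle range, and the other 5 lay above it. The log2 fold change of 0.67 (SE 0.22) had a limma adjusted p of 0.0724, and of 0.200 with the pairs averaged. Leaving out replicate 6 gave 0.80 (adjusted p = 0.00641), and leaving it out with the pairs averaged gave an adjusted p of 0.0343, a fit in which 4.44% of tested genes were called higher.

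The Qa-region genes differed among themselves. H2-Q7 (chromosome 17, 35439155 to 35443773, plus strand) belongs to the genes of the Qa-2 antigen, and it had 126, 230, 314 and 143 normalised reads in vehicle and 777, 685, 450, 244, 317 and 182 in SP2509. Of the SP2509 libraries 4 exceeded all vehicle libraries, and replicates 4 and 6 lay within the vehicle range. Its log2 fold change of 1.02 was the largest of the 9 genes, with the second largest SE (0.40, limma adjusted p = 0.122, and 0.242 with the pairs averaged). Without replicate 6 it was 1.24 (SE 0.39, limma adjusted p = 0.0489). H2-Q6, its close neighbour (35424850 to 35430055), ranged from 311 to 794 in vehicle and from 281 to 1162 in SP2509, with a log2 fold change of 0.38 (SE 0.41, adjusted p = 0.581, and 0.768 with the pairs averaged). H2-Q4, whose product is the Qb-1 chain (35379617 to 35385290), ranged from 801 to 1385 and from 732 to 1796 (0.22, SE 0.25, adjusted p = 0.596, and 0.780 with the pairs averaged). In both, 2 SP2509 libraries lay above all vehicle libraries and 1 lay below them.

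H2-T22 (ENSMUSG00000056116, chromosome 17, 36037128 to 36042747, minus strand) encodes a chain that certain gamma-delta T cells recognise. It had 395, 513, 618 and 415 normalised reads in vehicle and 879, 878, 745, 654, 690 and 597 in SP2509. SP2509 replicate 6 lay just under vehicle replicate 3, and the other 5 SP2509 libraries lay above all vehicle libraries. H2-T22 rose by 0.62 on the log2 scale (SE 0.16, limma adjusted p = 0.0326), from 485 ± 102 (SD, n = 4) to 723 ± 120 (SD, n = 4 units). With the pairs averaged the log2 fold change was 0.58 and the adjusted p 0.112. On the recovered reads of all 10 libraries H2-T22 also passed with edgeR (adjusted p = 0.0365), which called 5.3% of tested genes higher. The DESeq2 value was 0.00734, from a tool that called 9.47% higher and made too many false calls in simulation. The limma call was lost in 7 of 10 fits that each left out 1 library.

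H2-T23 (ENSMUSG00000067212, chromosome 17, 36029773 to 36032855, minus strand) encodes Qa-1, which presents leader peptides of classical chains to CD94 and NKG2 receptors on NK cells. Vehicle libraries held 638, 576, 733 and 686 normalised reads and SP2509 libraries 912, 987, 850, 1056, 1086 and 693. Replicates 4 and 5 were the highest here, unlike in the classical genes, and replicate 6 alone lay within the vehicle range. The gland mucin gene Muc5b was also highest in replicates 4 and 5 (270597 and 281216 normalised reads). Without these libraries the log2 fold change of H2-T23 was 0.38 (SE 0.14, limma adjusted p = 0.136). Adipocyte and macrophage markers were highest in replicates 4 and 5 too. The part of gland, adipocyte or macrophage RNA in the H2-T23 difference was not tested. H2-T23 rose by 0.49 (SE 0.14, limma adjusted p = 0.0434), from 658 ± 67.4 (SD, n = 4) to 891 ± 160 (SD, n = 4 units). The adjusted p was 0.158 with the pairs averaged, and leaving out any library other than SP2509 replicate 6 ended the call, in 9 of 10 fits.

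H2-M3 (chromosome 17, 37270220 to 37274484, plus strand), which presents formylated peptides, ranged from 55.3 to 83.1 in vehicle and from 64.1 to 94.9 in SP2509, resting on 202 and 626 whole reads per group. The difference of 0.30 on the log2 scale had an SE of 0.19 (limma adjusted p = 0.310, and 0.390 with the pairs averaged), and 4 SP2509 libraries lay above all vehicle libraries.

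B2m (ENSMUSG00000060802, chromosome 2, 122147686 to 122153083, plus strand) encodes the light chain that all these heavy chains share. Vehicle libraries held 1654, 2898, 3101 and 2477 normalised reads and SP2509 libraries 5039, 4914, 5122, 3456, 3419 and 2613. As in H2-D1, 5 SP2509 libraries exceeded every vehicle library and replicate 6 did not. The log2 fold change was 0.69 (SE 0.23, limma adjusted p = 0.0777, and 0.190 with the pairs averaged). It was 0.81 without replicate 6 (adjusted p = 0.0157).

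**Figure D2:**
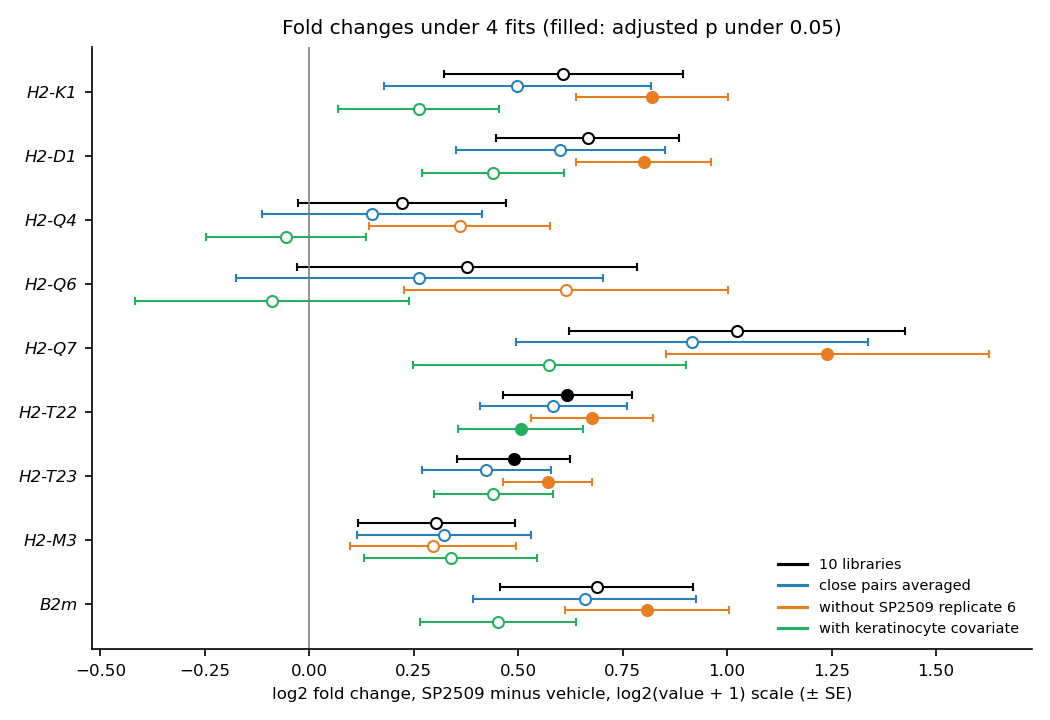
Log2 fold change of each gene (SP2509 minus vehicle, ± SE) from limma over 10 libraries, with the close pairs averaged, without SP2509 replicate 6 and with keratinocyte markers as a covariate; filled points have an adjusted p under 0.05. H2-T22 and H2-T23 are filled over 10 libraries, none is with the pairs averaged, and 6 are without replicate 6.

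The differences from vehicle were graded over the SP2509 libraries. The median over the 9 genes of the log2 difference from the vehicle mean was 1.03 in SP2509 replicate 1, nearly as high in replicate 2, 0.64 in replicate 3, 0.45 in replicate 4, 0.50 in replicate 5 and close to 0 in replicate 6. Vehicle replicates ranged from -0.27 to 0.37. In replicate 6, 4 of the 9 genes lay above the vehicle mean.

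**Figure D3:**
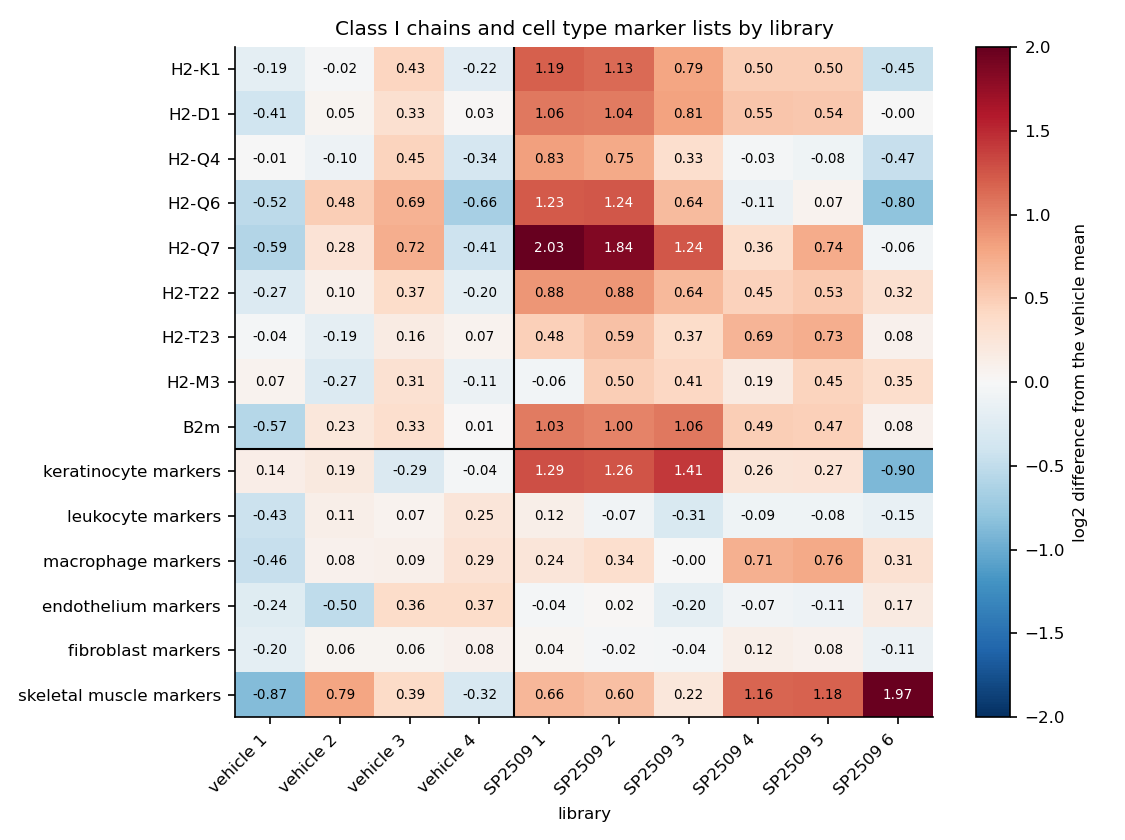
Log2 difference from the vehicle mean in each library, as colours and numbers, for the 9 genes (top) and the mean of each of 6 cell type marker lists (bottom). The median over the 9 genes is 1.03 in SP2509 replicate 1, 0.45 in replicate 4 and near 0 in replicate 6, where the keratinocyte markers are lowest and the skeletal muscle markers highest.

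Keratinocyte markers had a similar order over the SP2509 libraries, and neutrophil markers, given below, a partly similar one. The mean log2 value of 10 markers was 12.1 to 12.6 in vehicle, 13.7, 13.7 and 13.8 in SP2509 replicates 1 to 3, 12.7 in replicates 4 and 5, and 11.5 in replicate 6. The 10 markers were all positive (median 0.57), 0 were called by limma, 2 had an unadjusted p under 0.05 and edgeR called 1. Their sum ranged from 89238 to 130740 normalised reads in vehicle and from 55985 to 276510 in SP2509, and none was at 0 in any library. With that mean as a covariate, H2-T22 kept its call (log2 fold change 0.51, limma adjusted p = 0.0401), H2-T23 was at 0.44 (SE 0.14) against 0.49 without it, with an adjusted p of 0.0544, and 9.11% of tested genes were called higher. H2-K1 was at 0.26 (SE 0.19) and H2-D1 at 0.44 (SE 0.17), while H2-Q4 and H2-Q6 were at -0.056 and -0.090. Whether more keratinocyte RNA carries the differences was not tested beyond this fit. Skeletal muscle markers were also positive in 10 of 10 (median 0.97), with a mean log2 value of 12.4 to 14.0 in vehicle and 13.4 to 15.2 in SP2509. With that mean as a covariate neither gene passed (limma, where 2.5% of tested genes were called higher), but the differences were as large and their SEs wider. H2-T22 was at 0.62 (SE 0.20, adjusted p = 0.0924) and H2-T23 at 0.58 (SE 0.17, adjusted p = 0.0687). Macrophage markers summed to 925 to 1621 and 1346 to 2431 normalised reads, and 7 of 8 were positive with a median of 0.53. Of the 8, 5 had an unadjusted p under 0.05 (limma), DESeq2 called 3, and limma called 1, the complement gene C1qb (0.92, adjusted p = 0.0357, and 0.124 with the pairs averaged). Their part in the class I values was not tested. Leukocyte markers had a median log2 fold change of -0.02, with 0 of 10 called by limma and edgeR, 2 by DESeq2 and 2 at an unadjusted p under 0.05, and summed to similar ranges (1062 to 1461 and 1033 to 1318 normalised reads). Dendritic cell markers were positive in 0 of 8 (median -0.58), and limma called Itgax lower (-1.06, adjusted p = 0.0351, and 0.107 with the pairs averaged). T cell markers were positive in 3 of 5 tested, and limma called Trbc2 higher (1.32, adjusted p = 0.0151, and 0.0750 with the pairs averaged). The 3 tested neutrophil markers had mean log2 values of 9.75, 9.80 and 8.89 in SP2509 replicates 1 to 3. They were at 8.30, 7.87 and 8.16 in replicates 4 to 6 and 5.88 to 8.30 in vehicle. In S100a8 (1.92, limma adjusted p = 0.0514) and S100a9 (2.22, 0.0818) every SP2509 library lay above every vehicle library, as in 6.54% of tested genes. Csf3r did not follow them (0.07, 0.914). Over all tested genes limma called 4.95% higher and 4.15% lower. The part of these cell types in the class I values was not tested.

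Divided by exon length, the order of the 9 genes was the same in both groups. B2m stood first with 2945 normalised reads per kb in vehicle and 4694 in SP2509, followed by H2-D1 (1639 and 2533) and H2-K1 (1535 and 2304). H2-Q4 (398 and 456), H2-Q6 (256 and 323), H2-T23 (228 and 308) and H2-T22 (142 and 212) came next. H2-Q7 (47.7 and 96.3) and H2-M3 (47.1 and 58.7) were lowest. This order is that of the group means. Among the vehicle libraries, the order of H2-D1 and H2-K1, of H2-Q6 and H2-T23, and of H2-Q7 and H2-M3 changed from library to library. H2-Q4 lay above H2-Q6 in each vehicle library.

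The summed level of the 8 heavy chains per kb was 4293 ± 890 in vehicle and 6291 ± 2146 in SP2509, a ratio of means of 1.47, and that of B2m was 1.59. Heavy chain per light chain RNA was 1.49 ± 0.248 and 1.33 ± 0.172, with overlapping ranges (1.27 to 1.82 and 1.17 to 1.52). The classical chains made up 74.0% ± 1.87 of the heavy chain level in vehicle and 76.6% ± 1.59 in SP2509. The ratio of H2-Q7 to H2-Q6 reads was 0.335 to 0.460 in vehicle and 0.537 to 0.672 in SP2509, without overlap. The share of H2-Q4 in the heavy chain level was 8.05% to 11.1% and 6.36% to 7.81%, also without overlap. The shares of the other heavy chains had overlapping ranges. Among single tested genes, 6.54% had every SP2509 library above every vehicle library and 5.11% every one below. How often ratios of genes separate in this way was not counted. These ratios were chosen with values in view, so they carry no test.

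**Figure D4:**
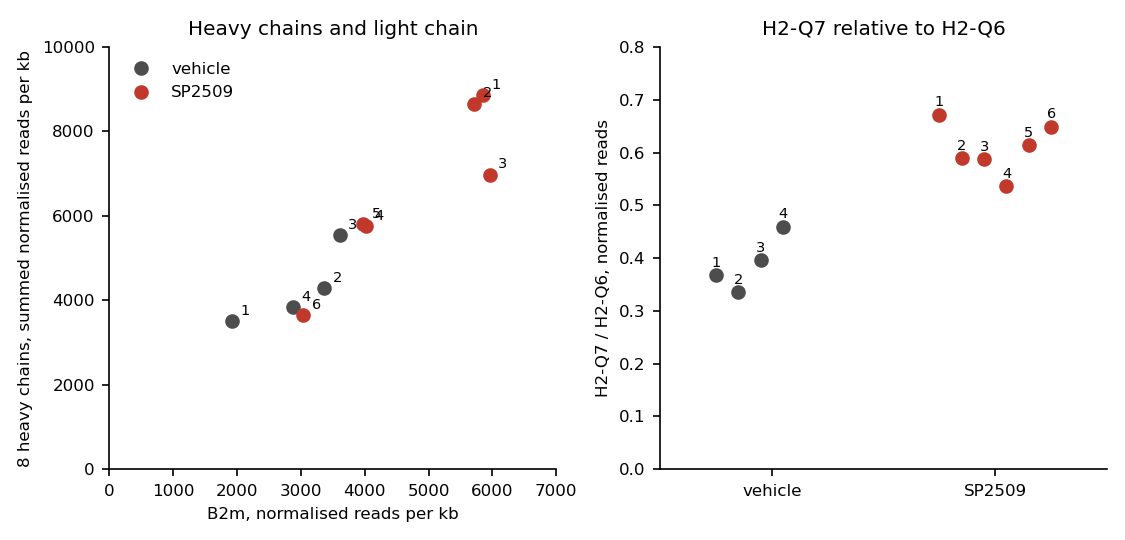
Left, summed heavy chain level against B2m level (both normalised reads per kb), and right, the ratio of H2-Q7 to H2-Q6 normalised reads, with 1 point per library numbered by replicate. The H2-Q7 to H2-Q6 ratio, chosen with values in view, is at most 0.460 in vehicle and at least 0.537 in SP2509. On the left SP2509 replicate 6 lies among the vehicle libraries.

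Near-identical copies limit how these reads can be assigned. Of 100-base windows of its transcripts, 31.5% in H2-T22 also occurred in transcripts of another gene, against 14.1% in H2-Q4, 13.0% in H2-Q6 and a similar share in H2-Q7, 3.59% in H2-D1, 3.15% in H2-T23, 0.957% in H2-K1 and 0% in H2-M3 and B2m. Except in B2m, the shares were larger for 50-base windows. They were 53.5% in H2-T22, 36.4% in H2-Q4, 35.0% in H2-Q6, 26.45% in H2-Q7 and 14.5% in H2-T23. H2-D1 had 12.8%, H2-K1 9.63% and H2-M3 0.576%. The read length was not found in the labels. The H2-Q7 to H2-Q6 ratio, the H2-T22 values and those of the other genes with shared windows, H2-T23 among them, are uncertain by an amount that was not measured. Antisense genes overlap 19.1% of the exon bases of H2-Q4 (Gm11131) and 29.4% of those of H2-T22 (A930015D03Rik, not analysed here). The strand setting of the counting is not given in the sources used here, so reads of H2-T22 and its antisense partner cannot be told apart.

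After the group means were subtracted, most class I genes varied together over the 8 units. Among the 7 genes other than H2-T23 and H2-M3, the 21 pairs had a Pearson r of 0.70 to 0.98. H2-T23 correlated with these 7 at 0.35 to 0.65 and H2-M3 with the other genes at -0.05 to 0.28. These values describe units that share library and depth, and paralogs also share reads. Of 12614 other genes, Tap2, a subunit of the peptide transporter, was most like H2-K1 (r = 0.981), followed by Rassf10, Pgap3, Cpsf3 and Chit1. Nearest to H2-T22 were H2-Q5 (0.964), Epb41l1, Cep131, Hddc2 and Cacna1c, and nearest to B2m were Sem1 (0.988), Ubash3b, Gm47071, Tmem41a and the interferon-induced gene Oas2 (0.976). Between the groups Tap2 differed by -0.12 (log2, SP2509 minus vehicle, limma adjusted p = 0.723), Chit1 by 0.62 (0.410) and H2-Q5 by 0.75 (0.259).

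Of 17 genes of peptide supply and loading, 3 rose, none fell and 14 were positive, with a median log2 fold change of 0.40. Over all tested genes 4.95% were called higher, 4.15% lower and 51.9% were positive, with a median of 0.02. The 3 were the lectin chaperones Canx (0.61, limma adjusted p = 0.0118) and Calr (0.87, 0.0365) and the general endoplasmic reticulum chaperone Hspa5 (1.09, 0.0371), which serve many proteins besides class I. With the pairs averaged their adjusted p-values were 0.0715, 0.0972 and 0.0798. Psmb10, an immunoproteasome subunit, had 0.31 (adjusted p = 0.0627) and Tapbp, the bridge between transporter and heavy chain, 0.44 (0.116). Of 12 tested genes of class I turnover and transport, 4 rose, none fell and 10 were positive, with a median of 0.39. These were the secretory cargo receptors Surf4 (0.92, limma adjusted p = 0.0149) and Tmed10 (0.85, 0.0126), Derl1 of the degradation pathway (0.39, 0.0402) and the export factor Bcap31 (0.36, 0.0450). Their adjusted p-values were 0.0715, 0.0715, 0.122 and 0.134 when the pairs were averaged. Calr, Hspa5, Surf4 and Tmed10 were highest in SP2509 replicates 4 and 5, and Canx, Derl1 and Bcap31 were not. Calr had 4839 and 5024 normalised reads there, 2290 to 3585 in the other SP2509 libraries and at most 1941 in vehicle. The gland mucin gene Muc5b was also highest in replicates 4 and 5 (270597 and 281216). Adipocyte and macrophage markers were highest there too. The part of gland, adipocyte or macrophage RNA in these differences was not tested.

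None of the 29 class I transcription factors and regulators was called in either direction by limma or edgeR, DESeq2 called 1, and 2 had an unadjusted p under 0.05 (limma). Of the 29, 18 were positive and the median was 0.07. The kinase Jak1 of interferon signalling had 0.28 (limma adjusted p = 0.0662) and Creb1, which binds cyclic AMP response elements, 0.22 (0.181). The class I transactivator Nlrc5 held 696, 830 and 745 normalised reads in SP2509 replicates 1 to 3, above all vehicle libraries, 268 and 263 in replicates 4 and 5, inside the vehicle range of 202 to 360, and 200 in replicate 6. Its difference of 0.60 (SE 0.41) did not pass (limma adjusted p = 0.355). Of 11 tested other class I and class I-like chains none was called by limma, edgeR or DESeq2, 2 had an unadjusted p under 0.05, 8 were positive and the median was 0.20. For H2-Q1 the log2 difference was -1.50 (SE 0.50, limma adjusted p = 0.0765), with all SP2509 libraries under the vehicle range, as in 5.11% of tested genes. It rested on only 41 whole reads in vehicle and 36 in SP2509. H2-Q10 differed by 1.89 (SE 0.74, 0.118), resting on 20 and 165 whole reads. Of 8 tested receptors for class I on T and NK cells none was called by limma, edgeR or DESeq2, 2 had an unadjusted p under 0.05, 2 were positive and the median was -0.46. Pirb, an inhibitory receptor of myeloid and B cells, had -0.46 (SE 0.20, adjusted p = 0.157) and Klrk1, the NKG2D gene of NK cells, -0.68 (SE 0.30, 0.166). Cd8a, the coreceptor for class I, rested on 16 whole reads in vehicle and 39 in SP2509, too few for the filter.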

How the data were processed

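Poly-A RNA of 10 tongue libraries was sequenced, and HISAT2, featureCounts and the build mm10 appear, with no versions, in the submitters' processing notes. The deposited signal values are read counts divided by 1 factor per library. The labels are silent on this scaling. It was inferred because 100% of the values came out as whole reads, to within 0.01, when divided by the worth of 1 read. This factor differed by at most 6.05e-08 percent from median of ratios scaling. In vehicle 1 read equals 0.898 to 1.85 normalised reads, and in SP2509 0.727 to 0.873. Of 27151 Ensembl IDs 27113 were matched to a symbol, and coordinates are from GENCODE M21 (GRCm38).

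The test was limma 3.58.1 (R 4.3.3, trend and robust, two-sided) on log2(value + 1) over 10 libraries with no covariate, for 17088 genes with at least 10 in at least 4 libraries, with Benjamini-Hochberg adjustment over all of them. Fold changes are on that scale, which understates low genes. edgeR 4.0.16 and DESeq2 1.42.0 were run on the recovered reads as alternatives. Other alternatives changed the filter, the pseudocount, the scaling (quantile or TMM) or limma's trend, or used a replicate block, libraries left out, averaged pairs and cell type covariates. In 5 simulated draws of this comparison over 17088 genes, with 200 genes of a mean of at least 50 changed, limma recovered 66.4% of genes changed 2-fold and 98.8% of those changed 4-fold, with 6.78% of calls false. edgeR had 5.57% false calls. DESeq2 had 15.6%, above its nominal rate. The limit the self-test set on false calls was first the same for all 3 tools, and DESeq2 exceeded it. That limit was then kept for limma and edgeR only, so DESeq2 calls are given as an alternative and support nothing here. The draws treated the 10 libraries as independent, without the closeness of SP2509 replicates 1 and 2, and 4 and 5. The simulated shares therefore do not give the rate of false calls in the real libraries.

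The genes, lists and tests were chosen with earlier results of these data known. All 9 genes are named whatever their values, with every called gene and the 2 to 4 smallest p-values of each list, and the 5 genes most like H2-K1, H2-T22 and B2m. A gene that this rule takes is not reported here. Motif shares were counted with Python 3.11.15, pandas 2.3.3 and NumPy 2.4.6.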

Additional observations from a re-analysis of the deposited data

How the results depend on the processing

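The fold changes of all 9 genes were positive in 26 of 27 alternatives. The exception was the keratinocyte covariate, where H2-Q4 was -0.056 and H2-Q6 -0.090. No alternative called any of the 9 genes lower, and 11 called none higher. H2-T22 passed in 16 of 27 (limma, edgeR or DESeq2, adjusted p 0.00734 to 0.112) and H2-T23 in 11 (0.00453 to 0.158). The 10 libraries gave 846 genes higher, 709 lower and 2 of the 9 genes higher. No filter gave 553, 479 and 1. Limma without trend gave 490, 481 and 0. TMM scaling gave 1288, 575 and 2, and quantile normalization 666, 1060 and 1, so the share of higher among calls was 69.1% and 38.6% against 54.4%. DESeq2 gave 1618, 1388 and 5. Averaging the close pairs gave 0, 0 and 0, leaving out SP2509 replicates 4 and 5 gave 219, 156 and 0, a skeletal muscle covariate 428, 243 and 0, a leukocyte covariate 893, 715 and 2, and a keratinocyte covariate 1557, 1140 and 1. Leaving out 1 library gave 171 (without vehicle replicate 1) to 1971 (without SP2509 replicate 6) genes higher, 107 to 1488 lower, and 0 to 6 of the 9 genes higher. An alternative added after seeing the data, replicate 6 left out with the pairs averaged, gave 759, 573 and 5. The cause was not tested for any of these. With replicates 1 to 4 of both groups as a replicate block the counts were 1158, 813 and 6, and the same libraries without the block, also added after seeing the data, gave 1578, 1139 and 6. Deviations of same-numbered libraries from their group means correlated at r = 0.126, 0.032, -0.198 and 0.125. The labels link these libraries only by number, and such values cannot settle whether they shared a batch. The 202 reads of H2-M3 in vehicle limit what can be seen there.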

Other observations

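The H2-K2 pseudogene beside H2-K1 (chromosome 17, 33974659 to 33978827, GRCm38) moved the other way. It had 441, 293, 384 and 260 normalised reads in vehicle and 173, 166, 186, 229, 196 and 128 in SP2509, so every SP2509 library lay below every vehicle library, as in 5.11% of tested genes. H2-K2 fell by 0.93 on the log2 scale (SE 0.19, limma adjusted p = 0.0166, and 0.0737 with the close pairs averaged). It was chosen after its values were seen.

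Some class I-like genes were highest in SP2509 replicates 4 and 5, the libraries in which the gland mucin gene Muc5b stood at 270597 and 281216 normalised reads against at most 644 elsewhere. H2-Q2 had 89.6 and 96.0 normalised reads there and at most 4.47 in the other libraries. Azgp1 had 192 and 251, and at most 3.71 elsewhere. H2-Q10 had 29.0 and 50.2, and 0 to 17.9 elsewhere. H2-T23, of the 9 genes, was also highest there, at 1056 and 1086, against 576 to 987 elsewhere. Gland RNA is not the only difference of these libraries. The mean log2 value of the 3 tested adipocyte markers was 8.08 and 8.11 there, and at most 5.54 elsewhere. That of the macrophage markers was 7.74 and 7.79, and at most 7.37 elsewhere. The part of gland, adipocyte or macrophage RNA in the class I-like values was not tested. The class II genes H2-Aa, H2-Ab1 and H2-Eb1, also chosen after their values were seen, had log2 fold changes of 0.02, 0.01 and -0.02 (limma adjusted p = 0.914, 0.975 and 0.917).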
